A study of Homo sapiens with 8 samples.

Results

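The comparison sets hTERT-RPE1 cells labelled ATF3(-/-) against wild-type cells of the same line, both taken after 8 h without serine and glycine. It uses 4 of the 8 RNA sequencing libraries of the study, chosen by medium alone: 1 wild-type and 1 labelled-knockout library from each of 2 batches. hTERT-RPE1 is an established human line from retinal pigment epithelium that carries telomerase. Per the series text, the batches were separate experiments run 1 week apart. All cells were first kept in complete medium for 2 days, and the remaining 4 libraries, of both genotypes in complete medium, enter only beside the results. How ATF3 was disrupted, and whether the labelled-knockout cells are 1 clone, is given by none of the sources used here. Expression is in FPKM, which scales reads by transcript length and library size. Of 57884 listed genes, 15966 reached an FPKM of 1 in at least 2 of the 4 libraries, and 12322 of these are protein-coding. A difference below is log2(FPKM + 1) of the labelled-knockout library minus that of the wild-type library of its own batch, so that 1 stands for 2-fold on that scale. It understates the fold of weakly expressed genes.

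ATF3, a basic leucine zipper transcription factor induced by stress, binds cyclic AMP response elements and related sites and can repress or activate its targets. Cells make serine from a glycolytic intermediate through PHGDH, PSAT1 and PSPH. When amino acids run short, uncharged transfer RNAs activate the kinase GCN2, translation of ATF4 increases, and ATF4 induces genes of serine synthesis, amino acid uptake and stress signalling, ATF3 among them.

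The 2 batches stood apart before any genotype was compared. Across the 15966 genes, the 2 libraries of batch 1 correlated at r = 0.947 and those of batch 2 at r = 0.937, while pairs drawn across the batches correlated at r = 0.777 to 0.803. The tables of the batches were normalized separately, so the levels that follow are not on one scale. KRT19, a keratin of simple epithelia, was at 0.143 and 0.741 FPKM in batch 1 (here and below the wild-type library is given first, then the labelled knockout) and at 216 and 306 in batch 2. SPARC, a secreted matrix protein of mesenchymal cells, was at 343 and 403 in batch 1 and at 1.66 and 0.0903 in batch 2. In all, 45 protein-coding genes stood at 20 FPKM or more in both libraries of batch 1 and under 1 in both of batch 2, and 45 showed the converse. Of 26 genes of retinal pigment epithelium, 9 to 13 reached an FPKM of 1 in a library, while RLBP1 and OTX2, which mark that tissue, were listed at 0 in all 4 and RPE65 lay at 0.25 or below. Markers of 3 other lineages were low: 8 pigment cell genes summed to 0.309 to 1.84 FPKM, 7 endothelial genes to 0.812 to 2.41, and 9 immune genes to 5.32 to 14.6, mostly CD68. The 8 neuronal genes summed to 64.6 and 81.2 FPKM in batch 1 and 39.0 and 45.9 in batch 2, most of it TUBB3, a tubulin (37.9 to 73.4), while STMN2 and ELAVL4, which mark neurons, lay below 0.3. Of these 8 genes, 5 and 4 reached an FPKM of 1 in batch 1, and 1 and 2 in batch 2. Results below are therefore given for both batches, or with the batch named where only 1 is given.

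ATF3 mRNA did not separate the genotypes by their label. It was at 6.46 and 4.45 FPKM in batch 1, wild type first, and at 18.01 and 57.3 in batch 2. Its level was thus lower with the knockout label in batch 1 (difference −0.45) and higher in batch 2 (1.62). The limma estimate over both batches was 0.58 ± 0.53 (SE, n = 2 pairs), with an adjusted p of 0.912. In complete medium ATF3 was nearly level in batch 1 (−0.03) and again higher in batch 2 (2.23). With both media in the model its genotype difference differed between the batches (limma, 2.16 ± 0.30, adjusted p = 0.0432). A transcript count over the whole gene does not report the protein, since RNA with a frameshift can still be made. The label therefore has no check in these values.

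**Figure D1:**
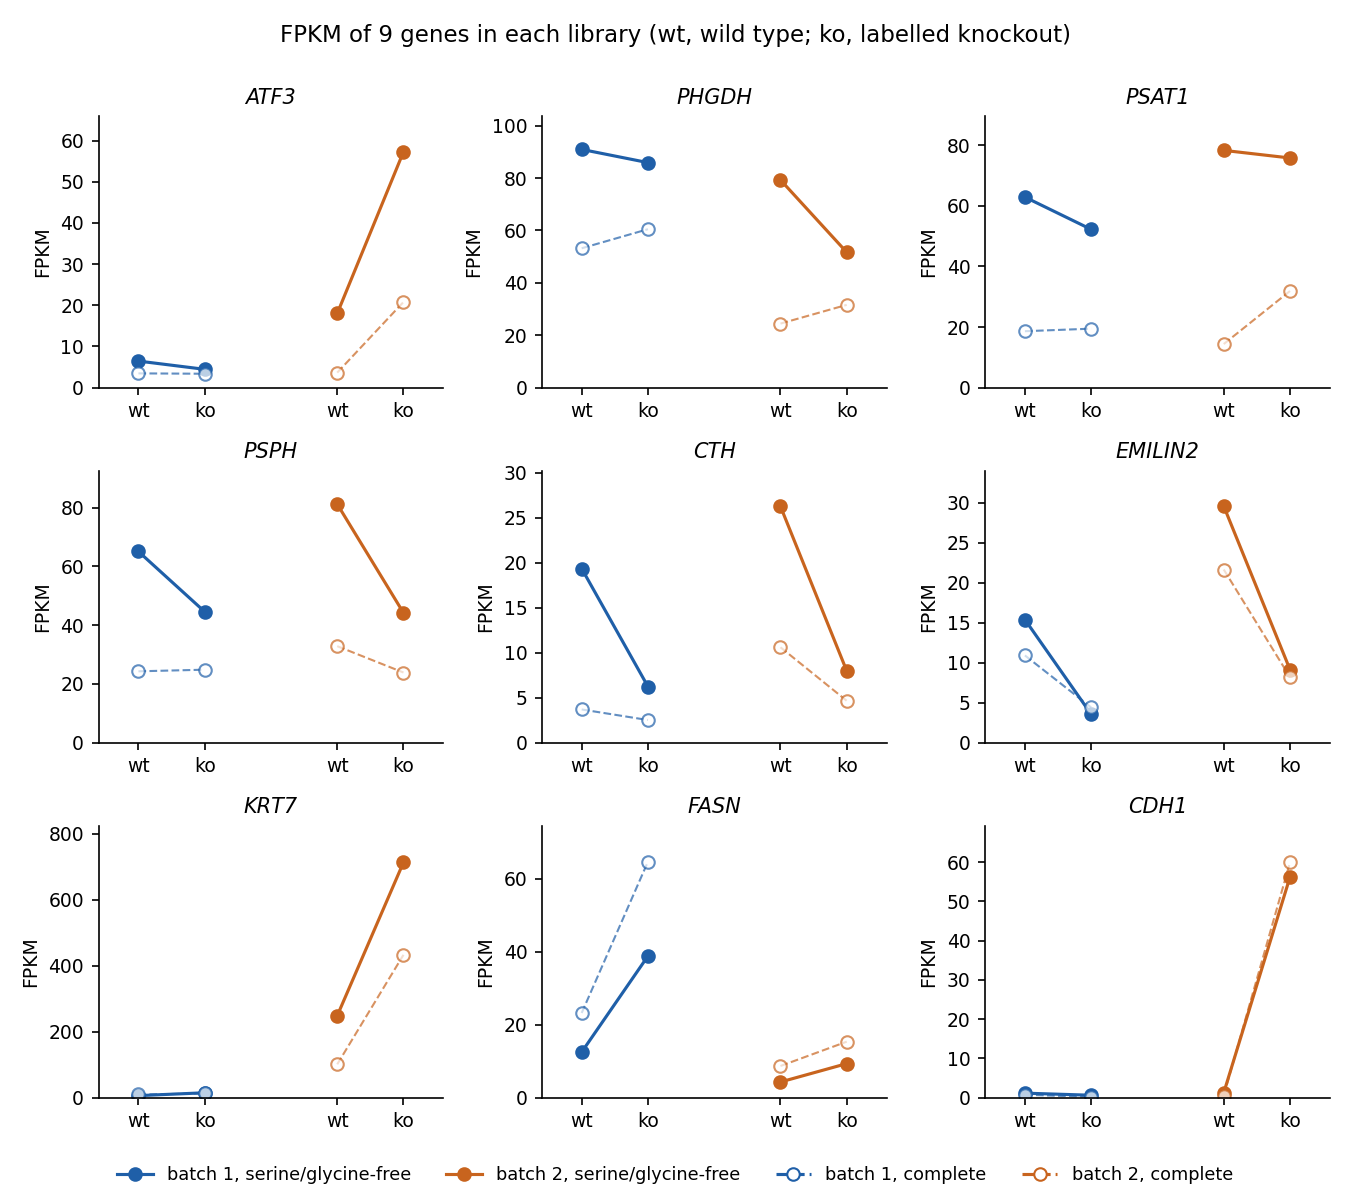
FPKM (vertical axis, linear, from 0) of 9 genes in the wild-type (wt) and labelled-knockout (ko) library of each batch; lines join the 2 libraries of a batch and medium, filled points are serine/glycine-free medium and open points complete medium. Among the filled points CTH and PSPH are lower with the knockout label in both batches and FASN is higher in both; ATF3 is highest, at 57.3, in the labelled knockout of batch 2, and CDH1 is above 50 only in the labelled-knockout libraries of that batch.

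Across all genes, limma with the batch as a block called 6 genes higher (0.0376% of those tested) and 12 lower (0.0752%) at an adjusted p under 0.05. None of them is protein-coding: the smallest adjusted p of a protein-coding gene was 0.569, for EMILIN2. At an unadjusted p under 0.05 there were 762 genes, where 5% of the genes tested is 798.3. In a limma fit restricted to protein-coding genes 641 passed unadjusted, where 5% is 616.1, and 0 passed after adjustment. A limma fit over all 8 libraries called 2 genes higher and 7 lower. All 18 genes called were listed at 0 in both libraries of one genotype, 13 of them are annotated as small RNA genes, 1 as a processed pseudogene and 4 had no annotated type. They met the filter only through the 2 libraries of the other genotype, so these calls are in part set by the filter. With an FPKM of 1 required in all 4 libraries, limma called 0 higher and 0 lower. SNORD54, a small nucleolar RNA gene, was at 0 in both wild-type libraries and at 2146 and 845 FPKM in the labelled-knockout libraries. In complete medium it was the reverse, with 2458 and 2023 FPKM in wild type and 0 in the labelled knockout. MT-TT, a mitochondrial transfer RNA gene, was at 0, 3762, 0 and 2252 FPKM in the same order, and in complete medium at 3422 in 1 wild-type library and 0 in the other 3. RNU6-1075P, a U6 pseudogene, was at 46.7 and 39.8 FPKM in wild type and 0 in the labelled knockout, with a like split in complete medium (68.1 and 33.5 against 0). Such short RNAs reach large FPKM from few reads, and a listed 0 may stand for an estimate that failed. Of the genes tested, 11080 share their deposited locus with another listed gene, and overlapping genes may share reads; HSPA8, KRT8, KRT18 and PGK1 have processed copies elsewhere in the genome.

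The protein-coding genes were then sorted by what the batches shared. In batch 1, 135 protein-coding genes were 2-fold or more higher with the knockout label and 252 lower (1.1% and 2.05% of those tested). In batch 2 these were 613 and 491 (4.97% and 3.98%). Only 20 were 2-fold or more higher in both batches (0.162%) and 22 lower in both (0.179%), while 43 differed 2-fold or more in opposite directions (0.349%). Batch 1 alone held 70 higher and 130 lower genes (0.568% and 1.06%), alone meaning under 0.5 either way in the other batch, and batch 2 alone held 405 and 352 (3.29% and 2.86%). Over all gene types the shared sets counted 70 and 94 (0.438% and 0.589% of those tested) and the opposite set 132 (0.827%). Batch 1 alone then held 144 higher and 267 lower (0.902% and 1.67%), and batch 2 alone 506 and 456 (3.17% and 2.86%). Regardless of the other batch, 2.09% of all genes tested were 2-fold or more higher and 3.65% lower in batch 1, and 5.49% and 4.89% in batch 2. The correlation of the 2 batches' differences over protein-coding genes was r = 0.018, a description, since genes are not independent. Within a batch, the differences in the 2 media correlated at r = 0.383 in batch 1 and r = 0.773 in batch 2, over libraries with no sample in common. With 1 library per genotype in each batch, these classes carry no test. Smaller differences leaned lower: 3737 protein-coding genes (30.3%) were lower in both batches by any amount and 2580 (20.9%) higher. That lean depends on the scaling, since after scaling the libraries by the median ratio of protein-coding genes the counts were 3125 and 3130, and after upper quartile scaling 3074 and 3192, both scalings chosen for these counts after the data were seen.

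**Figure D2:**
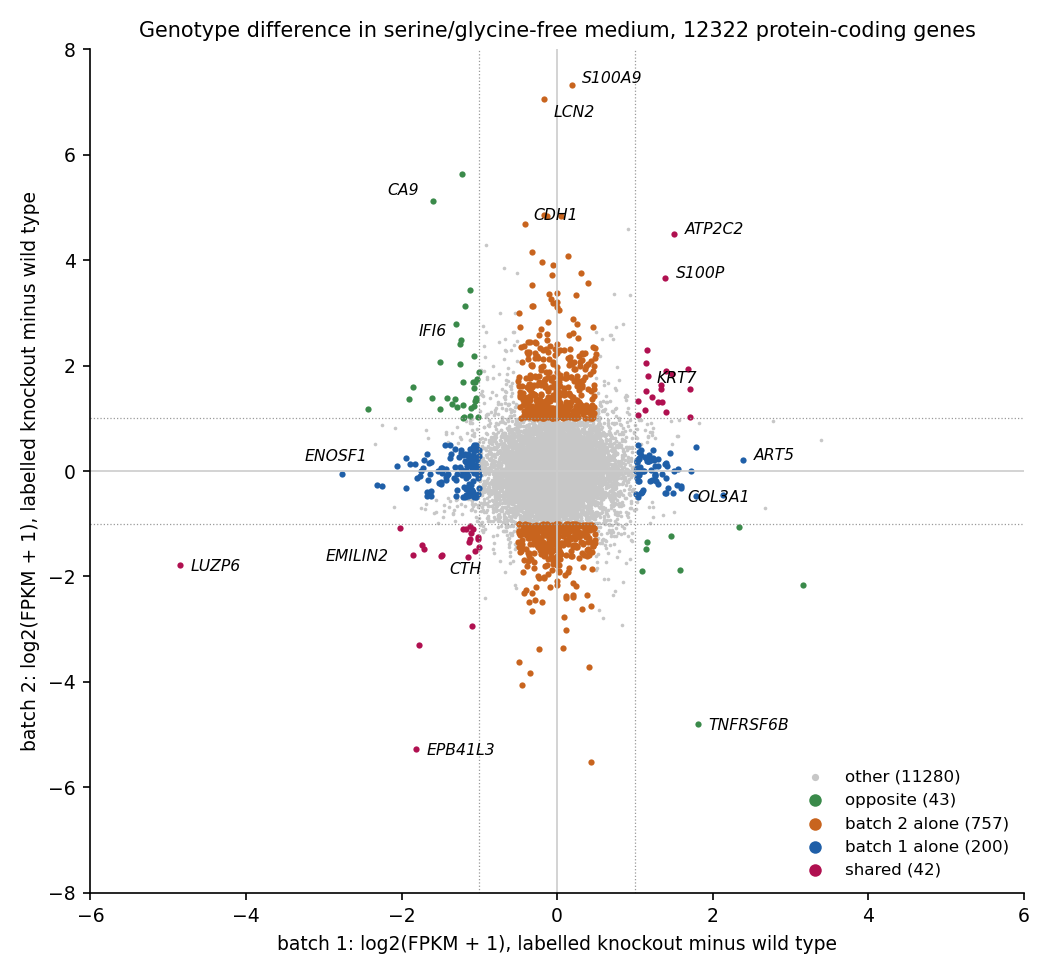
Difference between labelled-knockout and wild-type cells (log2(FPKM + 1)) in batch 1 (horizontal axis) against batch 2 (vertical axis) for 12322 protein-coding genes, coloured by class; dotted lines mark 2-fold. The 42 shared genes lie in the upper right and lower left corners, and the vertical band of 757 genes is the larger set seen in batch 2 alone.

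Serine synthesis came first among the gene groups because the medium lacks its product. PHGDH, which opens the pathway, was at 90.9 and 85.9 FPKM in batch 1 and at 79.3 and 51.7 in batch 2. PSAT1, the transaminase of the second step, was at 62.9 and 52.2, then 78.3 and 75.8. PSPH, which releases serine, was at 65.1 and 44.6, then 81.2 and 44.2. All 3 were thus lower with the knockout label in both batches (2 of 3 after upper quartile scaling), and the spread between batches was wide: −0.08 and −0.61 for PHGDH, −0.26 and −0.05 for PSAT1, −0.54 and −0.86 for PSPH. PSPH had the smallest p of the 3 (limma estimate −0.70 ± 0.22, unadjusted p = 0.0236, adjusted p = 0.911). In complete medium the pattern did not hold: PHGDH and PSAT1 were higher with the knockout label in both batches (0.18 and 0.36; 0.06 and 1.10), and PSPH stood at 0.03 and −0.44. The difference between the media did not pass for any of the 3 (limma, adjusted p = 1.0 for each). Among 18 other enzymes of serine, glycine and folate metabolism, 5 were higher in both batches and 5 lower in both (27.8% each). Of protein-coding genes, 20.9% were higher in both and 30.3% lower. TYMS, thymidylate synthase, was the furthest apart, at 32.2 and 10.5 FPKM in batch 1 and 22.4 and 10.8 in batch 2, and it lies in a stretch of chromosome 18 described below.

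Outside chromosome 18, CTH had the smallest limma p of the protein-coding genes. CTH is cystathionine gamma-lyase, which makes cysteine from serine-derived cystathionine and is a known ATF4 target. It was at 19.4 and 6.24 FPKM in batch 1 and at 26.3 and 7.98 in batch 2. The differences within the batches were −1.49 and −1.60 (limma estimate −1.55 ± 0.25, unadjusted p = 0.00165, adjusted p = 0.633). The gene (chromosome 1, 70876901 to 70905534, hg19) shares its locus with no other listed gene. In complete medium it was lower as well, at 3.69 and 2.52, then 10.6 and 4.66 FPKM (−0.42 and −1.04). CHAC1, which degrades glutathione, was at 23.9 and 12.7, then 76.0 and 38.8 FPKM (−0.87 and −0.95), and in complete medium it was lower in batch 1 and higher in batch 2 (−0.40 and 0.70). GPX8, a peroxidase of the endoplasmic reticulum, stood at −0.49 and −1.45. Of 20 genes of transsulfuration and glutathione metabolism, 8 were lower in both batches and 4 higher in both.

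The ATF4 targets as a group had no common direction. Of 40 genes of the amino acid response, 12 were lower in both batches and 5 higher in both, 30.0% and 12.5% against 30.3% and 20.9% of protein-coding genes. Their median difference was −0.30 in batch 1 and 0.10 in batch 2. ATF4 itself was level, at 300.4 and 287.7 FPKM in batch 1 and 171 and 179 in batch 2. ASNS, asparagine synthetase, was at 99.6 and 86.0, then 110.0 and 120.6. SLC38A2, a neutral amino acid transporter, was lower in both batches (−0.60 and −0.61, from 234.8 to 155 and from 544 to 356 FPKM), and SLC7A5, the light chain of the large neutral amino acid transporter, was higher in both (0.48 and 0.60). DDIT4 and SESN2, which restrain mTORC1, stood at −0.65 and −0.45, and at −1.12 and −0.53. DDIT3, the stress factor CHOP, split the batches, at 59.6 and 17.6 FPKM in batch 1 and 53.1 and 61.3 in batch 2. JDP2, an AP-1 repressor close in sequence to ATF3, split them further: 31.9 and 23.6 FPKM, then 3.05 and 19.95, and its genotype difference differed between the batches (limma, adjusted p = 0.0291). In batch 2 the median of the 40 genes was 0.63 in complete medium, above the 0.10 without serine and glycine, and no member passed the test of genotype by medium. The 20 cytosolic aminoacyl-tRNA synthetases, also ATF4 targets in part, had medians of −0.15 and −0.13, with 9 lower in both batches and 3 higher.

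The genes higher with the knockout label in both batches were ranked by the smaller of the 2 batch differences and have varied functions. KRT7, a keratin of glandular epithelium, was at 6.17 and 14.8 FPKM in batch 1 and at 248 and 713 in batch 2 (1.14 and 1.52; limma estimate 1.33 ± 0.22, unadjusted p = 0.00184, adjusted p = 0.661). KRT16, a keratin of stressed epidermis, was at 2.24 and 7.20, then 0.160 and 2.59. S100P, a calcium-binding protein, was at 0.120 and 1.93, then 13.6 and 185, and IFITM1, an interferon-induced membrane protein, at 0 and 1.65, then 1.85 and 9.56. WFDC3, a protease inhibitor of the whey acidic protein family, was at 0.323 and 3.33, then 4.13 and 14.0. ATP2C2, a secretory pathway calcium pump, was at 0.117 and 2.17, then 0.0915 and 23.5. Most of these were thus weakly expressed in batch 1, near the FPKM of 1 that the filter asks for. TAF4, a subunit of the general transcription factor TFIID, was similar in both batches (1.76 and 5.95, then 1.41 and 6.15 FPKM). FASN, fatty acid synthase, was well expressed in both, at 12.5 and 38.8, then 4.29 and 9.33 FPKM (1.56 and 0.96), and stood apart in complete medium too (1.44 and 0.76). With ZCCHC14 (1.05 and 0.97) it lies just under the 2-fold limit, and MTL5 (1.71 and 1.03) and NEURL2 (1.04 and 1.33) just above it. SREBF1, the regulator that drives FASN, was at 0.60 and 1.15, while the 14 genes of fatty acid synthesis had medians of −0.07 and 0.37. MVD, a sterol-regulated enzyme of cholesterol synthesis, stood at 0.52 and 0.68. In its list of 23 cholesterol genes, 7 were higher in both batches (30.4%) and 4 lower (17.4%), beside 20.9% and 30.3% of protein-coding genes.

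Of the 22 protein-coding genes lower in both batches, 19 reached 5 FPKM in a library, as did 13 of the 20 higher in both. EMILIN2, an elastic fibre glycoprotein, was at 15.4 and 3.55 FPKM in batch 1 and at 29.6 and 9.13 in batch 2 (−1.85 and −1.59; limma estimate −1.72 ± 0.26, unadjusted p = 0.00125, adjusted p = 0.569). EPB41L3, a membrane skeleton protein, was at 40.2 and 10.7, then 74.7 and 0.968. NEGR1, a neuronal adhesion molecule, was at 19.3 and 5.20, then 6.42 and 1.66, and TMEM45A at 19.5 and 8.85, then 38.6 and 12.9. SERPINB7, a serpin, was at 2.84 and 0.152, then 113 and 42.1. CA12, a carbonic anhydrase, was at 13.0 and 5.30, then 5.75 and 1.17. PROS1, the anticoagulant protein S, was at 5.56 and 0.621, then 7.15 and 2.86, and GNG11, a G protein subunit, at 4.65 and 1.67, then 16.7 and 7.30. ZNF362, a zinc finger protein, was nearly the same in both batches (5.26 and 1.24, then 5.61 and 1.19), yet stood at 0.76 and −0.31 in complete medium. LUZP6 was at 27.7 and 0, then 27.5 and 7.31, and its 0 together with its value of 4.73 in the complete medium of batch 1 marks it as unsteady. AOX1, an aldehyde oxidase, lies just past the limit (−1.01 and −1.44). ACOX2 (−0.99 and −1.01) and TYMS (−1.53 and −0.99) lie just outside.

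Complete medium gave these shared genes a second measurement on other libraries. Of the 20 protein-coding genes shared higher, 11 were higher in both batches there too, where 21.1% of all protein-coding genes were. Of the 22 shared lower, 17 were lower in both, against 27.97%. The medians in complete medium were 0.13 and 1.41 (batch 1, batch 2) for the higher set and −0.75 and −1.08 for the lower set. The higher set was thus carried into complete medium mainly in batch 2, and the lower set in both.

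Promoter sequences are shown for 3 of these genes, CTH because it is the shared ATF4 target, WFDC3 and EMILIN2 because each holds a site of the kind that ATF3 and its partners bind. They are the 250 bases before the RefSeq gene start (build GRCh38.p14), 5′ to 3′ on the gene's strand, with a match in capitals.

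CTH: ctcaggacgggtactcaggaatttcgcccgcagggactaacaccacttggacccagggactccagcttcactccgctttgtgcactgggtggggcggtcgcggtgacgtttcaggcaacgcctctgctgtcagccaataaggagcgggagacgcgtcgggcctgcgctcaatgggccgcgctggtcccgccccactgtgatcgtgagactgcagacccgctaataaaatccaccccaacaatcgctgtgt
WFDC3: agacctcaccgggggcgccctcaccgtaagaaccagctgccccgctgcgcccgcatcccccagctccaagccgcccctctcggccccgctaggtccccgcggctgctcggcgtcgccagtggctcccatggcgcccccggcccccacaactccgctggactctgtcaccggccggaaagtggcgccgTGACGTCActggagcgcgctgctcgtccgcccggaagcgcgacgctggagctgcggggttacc
EMILIN2: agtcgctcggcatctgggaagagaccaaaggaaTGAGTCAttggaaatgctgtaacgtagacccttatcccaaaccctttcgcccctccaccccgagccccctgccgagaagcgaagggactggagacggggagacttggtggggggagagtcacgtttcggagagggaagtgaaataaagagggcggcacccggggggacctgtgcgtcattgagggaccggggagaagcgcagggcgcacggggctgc

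The CTH window (chromosome 1, 70411018 to 70411267, plus strand) holds no match to the 4 motifs searched on both strands. These were TGACGTCA (cyclic AMP response element), TGANTCA (AP-1), TGATGNAA (the composite site bound by ATF4 and C/EBP factors) and CACCTG (the E-box bound by ZEB and SNAI repressors). WFDC3 (chromosome 20, 45791884 to 45792133, minus strand) holds TGACGTCA, which 1.65% of 35116 promoter windows hold. EMILIN2 (chromosome 18, 2846756 to 2847005, plus strand) holds the AP-1 form TGAGTCA, and 6.57% of windows hold an AP-1 match. Of the 15 genes ranked first as shared higher, 8 had a window, 1 of them with TGACGTCA, 0 with AP-1 and 1 with the composite site. Of the 15 shared lower, 13 had one, 0 with TGACGTCA, 3 with AP-1 (EMILIN2, SERPINB7 and TBXAS1) and 0 with the composite site, which 3.14% of windows hold. CACCTG was in 3 of the 8 (LIME1, S100P and TMC4) and 0 of the 13, against 17.5% of windows. A match is a string of letters and not a measured site.

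Genes at the start of chromosome 18 were lower as a block in batch 1. The stretch was noticed after the values were seen, and its end was set by eye at NAPG, so it carries no test. It holds 30 tested protein-coding genes from THOC1 to NAPG (chromosome 18, 158383 to 10552758, hg19), covering the start of the short arm. In batch 1, 29 of the 30 were lower with the knockout label and 24 were 2-fold or more lower, of 252 such genes in the genome, with a median of −1.48; the exception was L3MBTL4, at 0.06. MYL12B and MYL12A, regulatory light chains of non-muscle myosin, were at 256 and 61.0 FPKM and at 109.6 and 28.8 in batch 1. VAPA, which tethers membranes to the endoplasmic reticulum, was at 103.9 and 39.2, and NDC80, a kinetochore protein, at 44.1 and 9.52. In complete medium the median in batch 1 was −1.28, again with 24 genes 2-fold or more lower. In batch 2 the median was −0.61, with 24 genes lower and 5 of them 2-fold or more, and the genes differed among themselves: MYL12B was at 262 and 280, while EPB41L3 and TMEM200C were at −5.27 and −3.30. The next 17 genes, up to ZNF519, had a median of −0.36 in batch 1 with 0 at 2-fold, and the other 133 on the chromosome −0.15. In batch 2 these medians were −0.43 and −0.15. Of 281 bins of 10 megabases with at least 12 tested protein-coding genes, the first bin of chromosome 18 had the lowest median of batch 1 in both media. In batch 2 it ranked 5 from the bottom (−0.55), and the bins at 40 to 50 and 30 to 40 megabases of the same chromosome ranked 1 and 2 (−0.80 and −0.68).

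**Figure D3:**
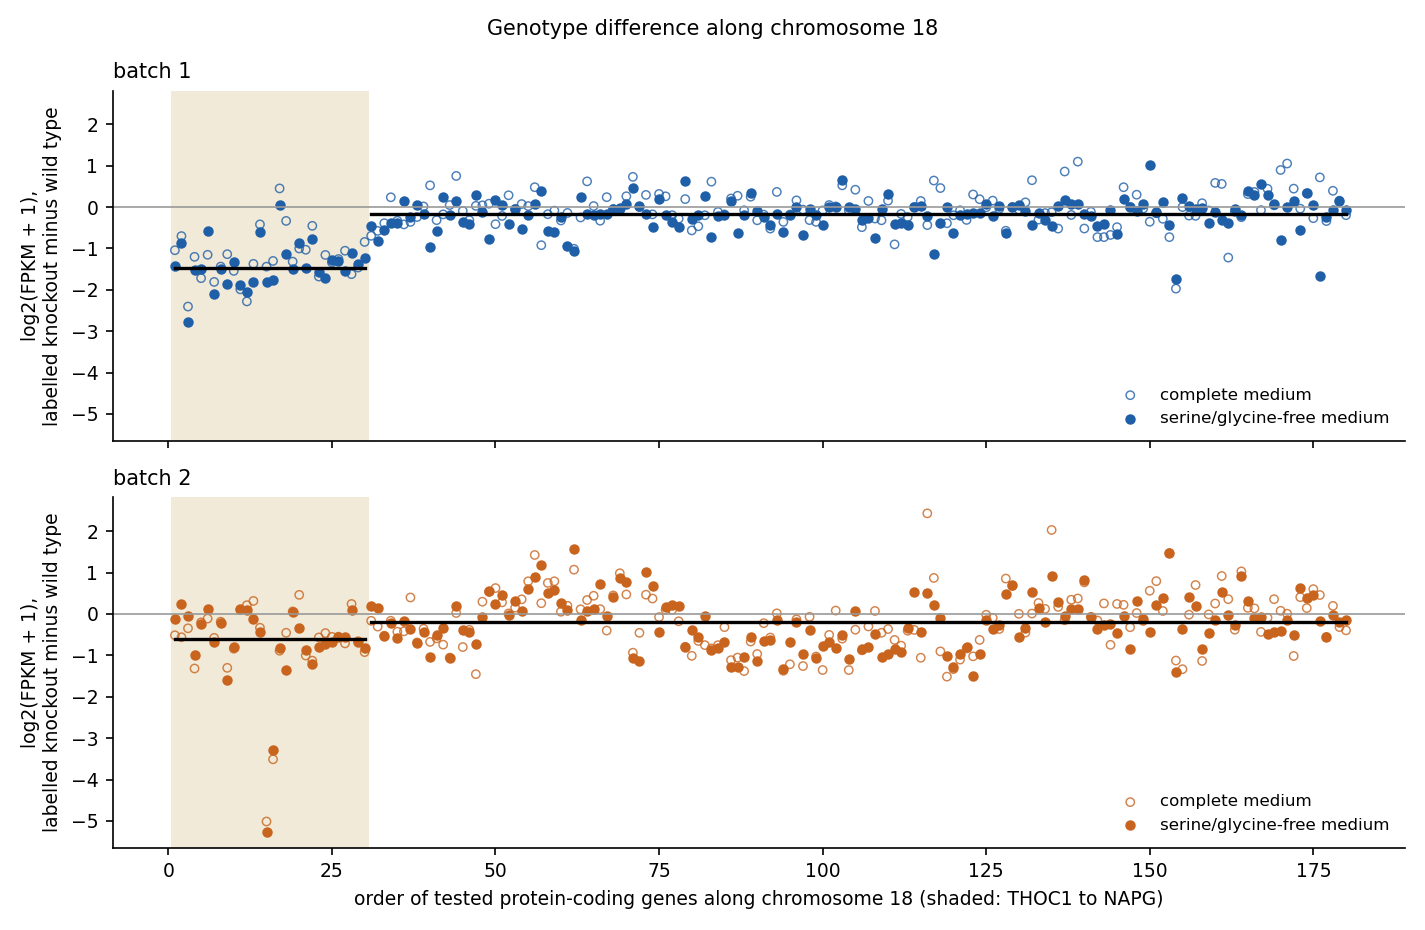
Difference between labelled-knockout and wild-type cells (log2(FPKM + 1), vertical axis) for the tested protein-coding genes of chromosome 18 in chromosome order (horizontal axis), batch 1 above and batch 2 below; filled points are serine/glycine-free medium, open points complete medium, and black bars the medians within and beyond the shaded stretch of 30 genes. In batch 1 the shaded genes sit near −1.48 and the rest closer to 0, and in batch 2 they sit near −0.61 with 2 genes below −3.

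That stretch bears on the shared lists. EPB41L3, TMEM200C, EMILIN2 and ARHGAP28, 4 of the 15 genes ranked first as lower in both batches, lie in it, as do ENOSF1, MYL12B, MYL12A and TGIF1, 4 of the 10 ranked first as lower in batch 1 alone. Over the whole classes of protein-coding genes, 4 of the 22 shared lower and 9 of the 130 lower in batch 1 alone lie there. Other bins also differed as a block. Medians beyond 0.5 either way stood in 10 bins in batch 1, 7 of them also in complete medium, and in 11 bins in batch 2, 9 of them also there. In batch 2 the bin from 70 to 80 megabases of chromosome 14 had a median of 1.07 (complete medium 0.99), with 41 of its 71 genes 2-fold or more higher. In batch 1 the last bin of chromosome 10 (130 to 140 megabases) had a median of −0.92 (complete medium −1.04), and MGMT, a DNA repair methyltransferase, lies there at 3.98 and 0 FPKM. Over the 281 bins the medians of the 2 media correlated at r = 0.843 in batch 1 and r = 0.914 in batch 2, and those of the 2 batches at r = 0.199. MYL12A and MYL12B are near-identical copies, and ENOSF1 and TYMS overlap, so the reads of such pairs may have been split between them. What lies behind the block differences was not tested.

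Among the lists with at least 9 genes tested, mitosis had the largest share of members lower in both batches. Of 35 genes of mitosis and G2/M, 30 were lower with the knockout label in both batches and 0 higher in both, where 30.3% and 20.9% of protein-coding genes were. The medians were −0.29 and −0.59, small beside the differences above, and no member passed the test. After either other scaling 29 were lower in both and 0 higher. CDC25C, the phosphatase that starts mitosis, was at 18.7 and 8.98 FPKM in batch 1 and 9.59 and 5.28 in batch 2. MAD2L1, a spindle checkpoint protein, was at 77.0 and 50.8, then 43.5 and 25.4, and BUB1B, another, at 32.1 and 22.5, then 26.9 and 12.9. CCNB1, the mitotic cyclin, was at 160 and 126, then 70.9 and 50.3. UBE2C, AURKB and TPX2 were the 3 lower in batch 1 and higher in batch 2. In complete medium the medians were −0.12 and −0.35, and 25 of the 35 were lower in both batches in both media, 71.4% against 15.7% of protein-coding genes. NDC80, at −2.10 and −0.68, lies in the chromosome 18 stretch. Histone genes were alike, with 13 of 20 lower in both batches and 0 higher (medians −0.18 and −0.45), 10 or 11 after the other scalings. Of 44 genes of DNA replication and nucleotide synthesis, 17 were lower in both and 6 higher (medians 0.03 and −0.28). Whether fewer cycling cells or less RNA per cell lies behind such levels cannot be told apart in bulk RNA, here or for the other lists.

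Glycolytic genes were also more often lower, and hypoxia targets were so mainly in batch 1. Of 20 glycolytic genes, 12 were lower in both batches (60.0%) and 1 higher (5.0%), beside 30.3% and 20.9% of protein-coding genes. The medians were −0.24 and −0.45, and the counts were the same after either other scaling. In all 4 comparisons of 2 media and 2 batches 11 were lower, 55% against 15.7% of protein-coding genes. PGK1, phosphoglycerate kinase, was at 351 and 202 FPKM, then 766 and 483, and LDHA, lactate dehydrogenase, at 425 and 328, then 669 and 484. PFKFB4, a regulator of phosphofructokinase, stood at −1.02 and −0.68. Of 21 hypoxia targets, all were lower in batch 1 (median −0.55) and 12 in batch 2 (median −0.06), where 6921 and 6437 of the 12322 protein-coding genes were. After either other scaling 10 were lower in both and 1 higher. BNIP3, a mitophagy receptor, was at 14.6 and 3.89, then 68.6 and 52.1. CA9, a carbonic anhydrase induced by hypoxia, split the batches, at 11.9 and 3.27 FPKM in batch 1 and 0.105 and 37.3 in batch 2. PDK1, a kinase that inhibits pyruvate dehydrogenase, was at −0.76 and −0.84.

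Few lists stood higher in both batches. Of protein-coding genes, 20.9% were higher in both and 30.3% lower. Of 13 protein genes of the mitochondrial genome, 7 were higher in both and 0 lower (medians 0.04 and 0.66), or 9 and 0 after either other scaling. MT-ND6, the one encoded on the light strand, stood first at 57.6 and 115 FPKM, then 40.2 and 66.9. Nuclear genes of the respiratory chain did not follow, with 7 of 34 higher in both and 17 lower (medians −0.08 and −0.14), or 10 and 13 after median ratio scaling. Of 20 heat shock genes, 8 were higher in both batches (40.0%) and 5 lower (25.0%). These counts were 11 and 5 after upper quartile scaling and 10 and 5 after median ratio scaling. HSPA8, the constitutive HSP70, was at 324 and 632, then 315 and 489 FPKM, while complete medium gave −0.05 and −0.26. No heat shock gene passed the test of genotype by medium. HLA-E and HLA-F, non-classical MHC class I genes, stood at 0.59 and 0.44 and at 0.57 and 0.57. Their list of 14 MHC class I and antigen processing genes did not share this, with medians of −0.05 and 0.23. In it 4 were higher in both batches and 1 lower (7 and 1 after either other scaling). Another 8 were lower in batch 1 and higher in batch 2, among them NLRC5 (−1.38 and 0.24) and HLA-B (−0.37 and 1.38). Cytosolic ribosomal proteins (medians −0.09 and 0.11), ribosome biogenesis genes (0.06 and 0.01), endoplasmic reticulum chaperones (−0.19 and 0.16) and autophagy genes (−0.28 and 0.16) lay near 0 or split the batches.

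**Figure D4:**
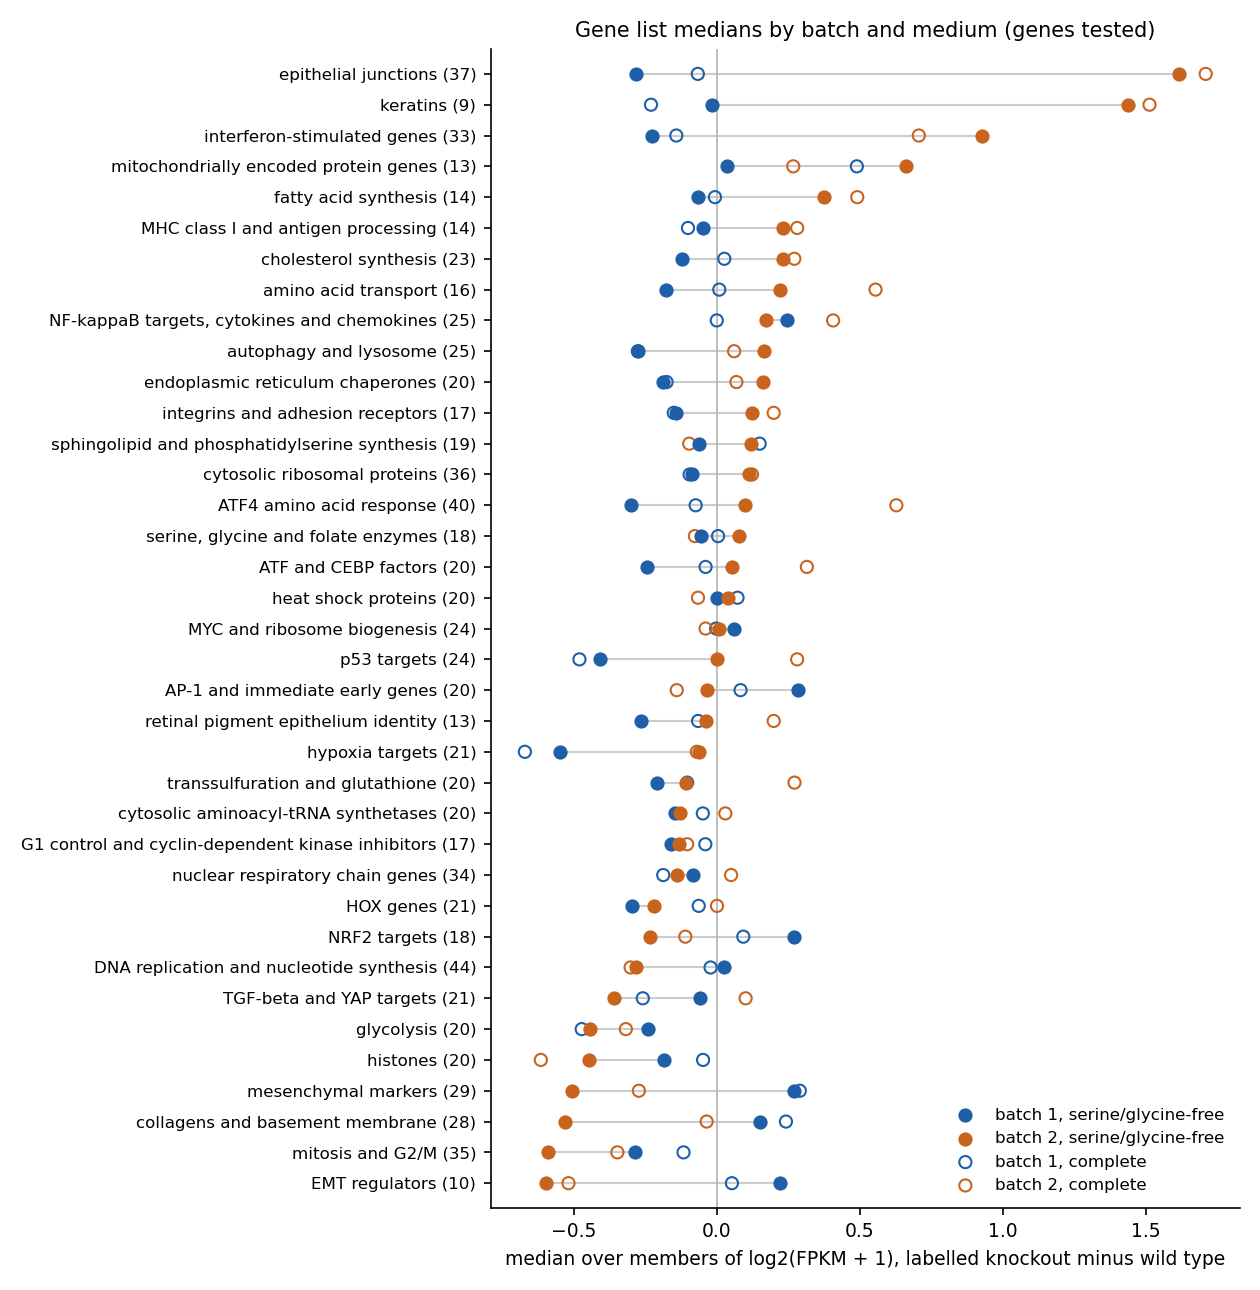
Median difference between labelled-knockout and wild-type cells (log2(FPKM + 1), horizontal axis) for each gene list with at least 9 tested genes (number in brackets), by batch (blue, batch 1; orange, batch 2) and medium (filled, serine/glycine-free; open, complete). Epithelial junctions reach 1.62 in batch 2 against −0.28 in batch 1, and mitosis lies below 0 in both.

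Batch 2 held an epithelial pattern that batch 1 lacked. Of 37 genes of epithelial junctions and epithelial splicing, 36 were higher with the knockout label in batch 2, 27 of them 2-fold or more, and 28 were lower in batch 1 and higher in batch 2, as were 3087 of the 12322 protein-coding genes. In batch 2, 5699 of the 12322 were higher, 613 of them 2-fold or more. The medians of the 37 were −0.28 and 1.62. The whole list of 48 genes summed to 254 FPKM in wild type and 204 in the labelled knockout of batch 1 against 469 and 1760 in batch 2. CDH1, E-cadherin, was at 1.15 and 0.618 FPKM in batch 1 and 1.23 and 56.2 in batch 2. CLDN7, a tight junction claudin, was at 0 and 0.889, then 3.90 and 118. JUP, plakoglobin of junctions and desmosomes, was at 6.44 and 6.17, then 4.23 and 46.5. ESRP1 and RBM47, splicing regulators of epithelial cells, were at 0.156 and 56.5 and at 0.281 and 10.2 in batch 2, and lower with the knockout label in batch 1 (−1.22 and −1.18). With both media in the model, 21 of the 37 had a genotype difference that differed between batches (limma, adjusted p under 0.05), beside 3.54% of all genes tested. In complete medium 27 of the 37 were 2-fold or more higher in batch 2 as well. AP1M2, an adaptor subunit of polarised epithelia, was present in both genotypes of batch 1 (77.9 and 69.2) and in batch 2 only with the knockout label (0.0796 and 30.2).

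Keratins followed, with medians of −0.02 and 1.44 over 9 genes. KRT8 was at 213 and 156 FPKM in batch 1 and 34.5 and 148 in batch 2, and its partner KRT18 at 89.9 and 64.4, then 39.7 and 109. The 2 largest differences of batch 2 alone were antimicrobial genes. S100A9, a calprotectin subunit, was at 0.211 and 0.377 in batch 1 and 1.15 and 342 in batch 2, and LCN2, an iron-scavenging lipocalin, at 2.70 and 2.28, then 8.96 and 1329. CDH3, P-cadherin, was at 1.16 and 61.0 in batch 2. ASS1, which makes argininosuccinate, was level in batch 1 (44.8 and 46.3) and at 1.94 and 82.8 in batch 2.

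Mesenchymal genes were more often lower in batch 2. Of 29 mesenchymal genes, 20 were lower in batch 2 and 8 of them 2-fold or more, while 23 were higher in batch 1 (medians 0.27 and −0.51). Of the 12322 protein-coding genes, 6437 were lower in batch 2, 491 of them 2-fold or more, and 5338 were higher in batch 1. In 15 of the 29 mesenchymal genes the sign went from higher in batch 1 to lower in batch 2, as in 2669 of the 12322. VIM, vimentin, was at 856 and 1247 FPKM in batch 1 and 638 and 102.0 in batch 2. CDH2, N-cadherin, was at 34.2 and 47.1, then 44.3 and 20.7. PLAT, the tissue plasminogen activator, was at 34.8 and 25.3, then 137 and 7.32. ZEB1 and SNAI2, repressors of E-cadherin, were at 11.6 and 18.3 and at 4.52 and 8.58 in batch 1, and at 12.03 and 4.26 and at 21.5 and 6.90 in batch 2. SNAI1, another SNAI repressor, was instead higher in both batches (differences 0.28 and 1.31), as was FOXC1 (0.57 and 1.23). Of the 10 regulators of epithelial-mesenchymal transition tested, 4 were 2-fold or more lower in batch 2 and 2 higher, beside 3.98% and 4.97% of protein-coding genes. COL6A3 was at 24.9 and 38.1, then 31.4 and 3.67. For VIM, CDH2, PLAT, ZEB1, SNAI2 and COL6A3 the batches differed (limma, adjusted p from 0.0106 to 0.0458). In all, 7 of the 29 mesenchymal genes, 2 of 10 regulators of epithelial-mesenchymal transition and 6 of 28 collagen and basement membrane genes passed that test, beside 4.02% of protein-coding genes. TAGLN, a smooth muscle actin binder, was an exception, at 24.4 and 33.8, then 1.66 and 16.7.

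**Figure D5:**
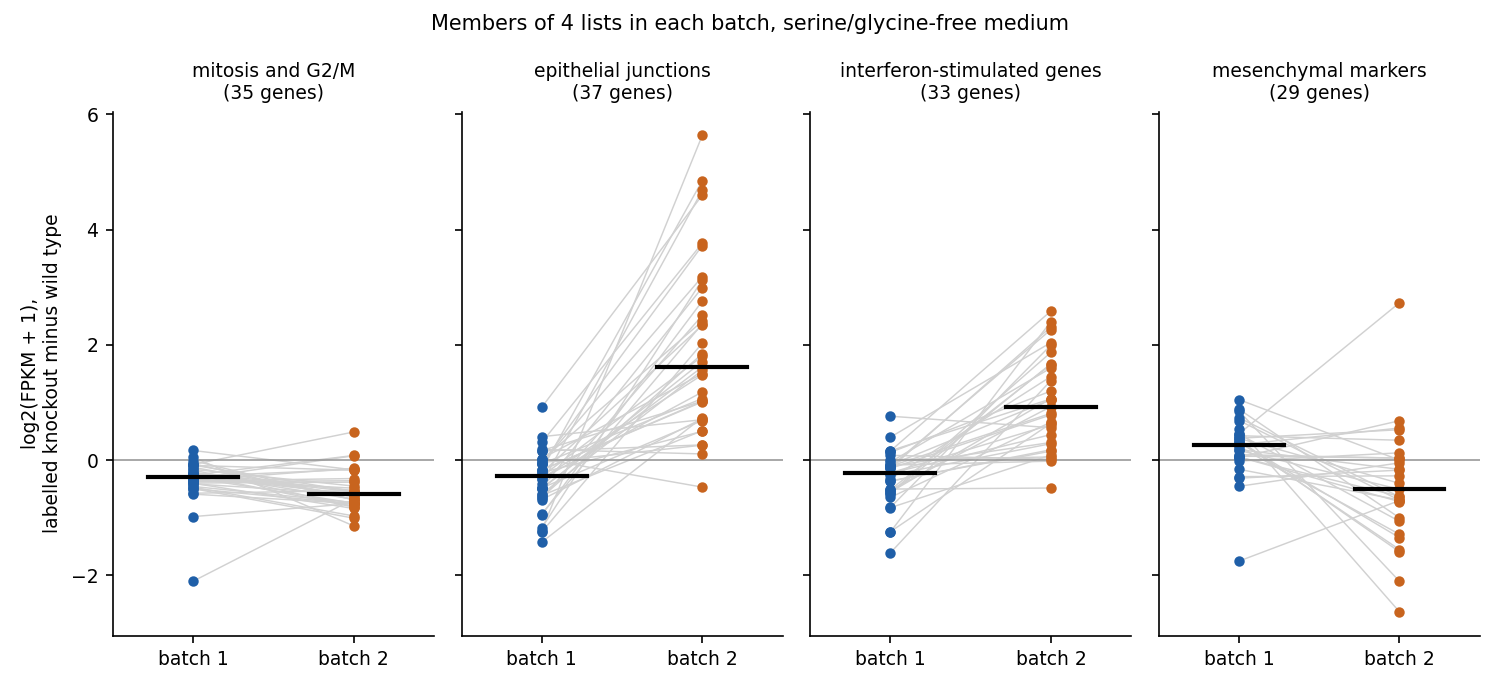
Difference between labelled-knockout and wild-type cells (log2(FPKM + 1), vertical axis) for every tested member of 4 lists in batch 1 (blue) and batch 2 (orange); grey lines join a gene's values and black bars are medians. Mitotic genes lie mostly below 0 in both batches, epithelial and interferon genes lie mostly above 0 in batch 2 and below it in batch 1, and mesenchymal genes mostly cross from above to below.

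Interferon-stimulated genes had medians of −0.23 in batch 1 and 0.93 in batch 2. Of 33, 24 were lower with the knockout label in batch 1 and higher in batch 2, and 16 were 2-fold or more higher in batch 2, where 3087 and 613 of the 12322 protein-coding genes were. The difference between the batches passed for 4 of the 33 (limma, adjusted p under 0.05), beside 4.02% of protein-coding genes. IFI6 was at 36.9 and 14.98 FPKM in batch 1 and 37.5 and 203 in batch 2. IRF9, the DNA-binding part of an interferon-activated complex, was at 9.01 and 4.66, then 9.69 and 41.6, and OAS1, a viral RNA sensor, at 0.326 and 0.479, then 2.44 and 19.7. Inflammatory genes in batch 2 were divided: IL6 was at 53.8 and 361 and PTGS2, cyclooxygenase 2, at 30.7 and 154, whereas IL1B was at 241 and 42.4. All 3 were at 1.25 FPKM or below in both libraries of batch 1. CDKN1A, the p21 cell cycle inhibitor, was at 123 and 75.2, then 29.9 and 89.9.

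Batch 1 alone held fewer genes. COL3A1, a fibrillar collagen, was at 17.4 and 52.5 FPKM in batch 1 and at 0.203 and 0 in batch 2, and COL1A1, at 7.72 and 23.3, then 0.973 and 1.80, falls just outside the class with a batch 2 difference of 0.51. ART5, a mono-ADP-ribosyltransferase, was at 4.39 and 27.3 in batch 1 and near 0 in batch 2, and KRT34, a hair keratin, at 9.22 and 34.4, then 5.44 and 7.85. On the lower side, ENOSF1 was at 12.9 and 1.05 in batch 1 and 25.6 and 24.7 in batch 2, and ALDOC, the brain form of aldolase, at 24.2 and 6.43, then 10.98 and 10.2. FAP, a fibroblast surface protease, was at 8.17 and 1.38 in batch 1 and at 0.374 and 0.0926 in batch 2. Of the protein-coding genes of batch 1 alone, 36 of the 130 lower were also 2-fold or more lower in the complete medium of that batch, and 7 of the 70 higher were 2-fold or more higher. Of all 12322 protein-coding genes, 267 were 2-fold or more lower and 124 higher there. For batch 2 alone these were 187 of 352 and 287 of 405, beside 454 and 687 of all.

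The 43 protein-coding genes that differed in opposite directions were mostly lower in batch 1 and higher in batch 2 (35 of 43). Beside CA9 and IFI6 they included LCP1, an actin-bundling protein (4.94 and 1.38 FPKM, then 38.0 and 99.0), and SMPDL3B, a membrane phosphodiesterase (4.08 and 1.06, then 0.517 and 9.54). The 8 in the converse direction included LIF, a cytokine of the interleukin-6 family, at 9.78 and 23.1, then 96.3 and 37.2, and NPAS2, a clock factor, at 0.884 and 4.21, then 19.7 and 7.82. TNFRSF6B, a decoy receptor, was at 0 and 2.52, then 40.1 and 0.486, and shares its locus with other listed genes.

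Over all genes, the genotype difference differed between the batches for 565 (3.54% of those tested; limma on all 8 libraries, adjusted p under 0.05), 362 with the larger value in batch 2 and 203 with the smaller, and 495 of them protein-coding (4.02%). This test takes the 2 media as repeat measurements of a genotype within an experiment, so its p-values measure only the spread within experiments. The classes were formed on 4 of the same 8 libraries, so their call rates are in part set by that choice and are given as a description. The test called 158 of the 405 protein-coding genes higher in batch 2 alone, 88 of the 352 lower, 3 of the 70 and 17 of the 130 of batch 1 alone, and 2 of the 42 shared, EPB41L3 and TMEM200C. The difference of the genotype effect between the media was called for 9 genes (0.0564%), 0 of them protein-coding; 248 passed unadjusted, and limma on protein-coding genes alone called 0.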

How the data were processed

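RNA sequencing values were deposited by the authors as FPKM per gene, in 1 table for each of 2 batches. TopHat, Cufflinks, Cuffdiff and the genome build hg19 are named in the submitters' processing notes; no source used here gives their versions. FPKM keeps no read count, so the depth of each library is unknown and no counting interval can be given. FPKM summed to 2629982 to 3148153 per library, of which small RNA genes took 61.1% to 65.6%, and a listed 0 may be an estimate that failed. Where nothing says that libraries came from separate cultures, p-values measure only the spread between these libraries.

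Genes with an FPKM of 1 or more in at least 2 of the 4 libraries were kept, and log2(FPKM + 1) was fitted with limma 3.58.1 in R 4.3.3, with the batch as a block, a trended empirical Bayes prior and Benjamini-Hochberg adjustment over all genes tested. The prior is needed because the 4 libraries leave 1 residual degree of freedom. The series text says that equal numbers mark the same batch, and same-numbered libraries deviated together (r = 0.742), so the numbers pair the samples. A genotype by batch and a genotype by medium term were fitted on all 8 libraries with the same filter. A gene counted as shared when it differed 2-fold or more with the same sign in both batches, as opposite when with opposite signs, and as in one batch alone when the other batch was under 0.5 on the log2 scale. The test was checked on simulated data. The simulated noise was normal and did not imitate genes undetected in all libraries of a genotype, the kind called here.

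Named are ATF3, the serine synthesis genes and the genes limma called. Among protein-coding genes at 5 FPKM or more in 1 library, the first 15 per direction of the shared genes, 10 per direction of each batch alone and 8 per direction of the opposite genes are added, ranked by the smaller or the single batch difference. For each list up to 5 members with the largest smaller-of-both difference and up to 3 with the largest single difference complete the rule. Outside it and chosen after their values were seen are G0S2, VAPA, L3MBTL4, ATF4, ASNS, DDIT4, AURKB, TPX2, UBE2C, CCNB1, CDH2, CLDN7, JUP, COL1A1, SPARC, STMN2 and ELAVL4, and the genes just inside or outside the 2-fold limit. The comparison's members and gene lists were chosen with earlier results of these data known. Gene types came from GENCODE 29 by gene identifier, with 96.5% of the genes tested matched, and promoters from RefSeq. Alternatives were other pseudocounts, filters, scalings, fold limits and priors, protein-coding genes only, no block, all 8 libraries, and leaving out libraries. Some genes of these lists and classes are not reported here.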

Additional observations from a re-analysis of the deposited data

Results flagged for a closer look

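PHGDH and PSAT1 drew a second look because their genotype difference had the opposite sign in the 2 media in both batches. The difference without serine and glycine minus that in complete medium was −0.61 for PHGDH and −0.73 for PSAT1, and neither passed (limma, adjusted p = 1.0). The median over the 3 serine synthesis genes did the same: the mean of the 2 batch medians was −0.44 without serine and glycine, against medians of 0.06 and 0.36 in complete medium. The list of MYC and ribosome biogenesis genes also changed sign, with a mean of batch medians of 0.033. The sign changes of these list medians were not tested.

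Genes called by limma for a genotype difference that differed between the media were RNAs listed at 0 in some libraries. The values were 21.52 for SNORD54, 9.11 for AL034400.1, −7.78 for AC118344.1, −6.32 and −5.78 for 2 Y_RNA genes and −5.39 for RNU6-1024P. RP11-603J24.9 had the opposite sign in the 2 media in every batch, with a value of −2.10. That last sign change did not pass the test.

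The batches differed in the genotype difference for 565 genes, the count given above.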

How the results depend on the processing

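Leaving out the replicate block, that is the pairing by batch, gave 3 genes higher and 2 lower in place of 6 and 12. Without a filter 2 and 2 were called, with an FPKM of 1 in all 4 libraries 0 and 0 (limma, 699 at an unadjusted p under 0.05), with protein-coding genes alone 0 and 0 (641 unadjusted), with all 8 libraries 2 and 7, and with all 8 and protein-coding genes alone 0 and 0 (874 unadjusted). A test without 1 library can only be had from all 8, where it gave 2 to 5 higher and 6 to 9 lower. The genotype by batch count of 565 became 242 with a pseudocount of 0.1, 0 without a filter (limma, 5648 unadjusted), 976 with the all-library filter, 1638 with protein-coding genes and 238 with a prior without trend. The genotype by medium count of 9 became 5, 3, 0 and 0 under the first 4 of these, and 3 without the replicate block.

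The shared counts of 70 higher and 94 lower became 242 and 358 at 1.5-fold, 10 and 19 at 4-fold, 178 and 198 with a pseudocount of 0.1, 17 and 26 with 5, 12 and 20 with the all-library filter, 28 and 46 with an FPKM of 5, and 20 and 22 with protein-coding genes. In the same order, batch 1 alone (411) gave 1719, 37, 693, 103, 192, 171 and 200, and 1089 without a filter. Batch 2 alone (962) gave 2893, 141, 1503, 415, 536 and 590, and 1587 without a filter. The opposite count (132) gave 556, 23, 356, 27, 13, 42 and 43. The cause of these shifts beyond the change of threshold or genes tested was not tested.

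With all 8 libraries, ATF3 turned to −0.51 without labelled-knockout replicate 2, PHGDH to 0.0120 without wild-type replicate 2 and PSAT1 to 0.00201 without labelled-knockout replicate 1. CTH stayed between −1.80 and −1.19 over its alternatives (limma, adjusted p 0.456 to 1.0). With 2 batches that differ in the genes of several lineages, no value here has a replicate of its own kind.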

Other observations

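Of 18 NRF2 targets, which defend against oxidants, 10 were higher with the knockout label in batch 1 and lower in batch 2 (medians 0.27 and −0.24). Of the 12322 protein-coding genes, 2669 were so. Beside the next 3 counts, 30.3% of protein-coding genes were lower in both batches and 20.9% higher. Of 24 p53 targets, 9 were lower in both batches (37.5%) and 5 higher (20.8%; medians −0.41 and −0.00), a lead that turned to 6 and 8 after median ratio or upper quartile scaling. Of 21 tested HOX genes, which set body position, 8 were lower in both batches (38.1%) and 0 higher (medians −0.30 and −0.22), the same counts as after either other scaling. Of 21 targets of TGF-beta and YAP signalling, 6 were lower in both (28.6%) and 3 higher (14.3%). TGFBI, a matrix adhesion protein, was at 210.3 and 61.7 FPKM in batch 1 and 23.9 and 14.3 in batch 2. Of 25 NF-kappaB targets, cytokines and chemokines, 7 had a genotype difference that differed between the batches (limma, adjusted p under 0.05), beside 4.02% of protein-coding genes. G0S2, an inhibitor of fat breakdown chosen after its values were seen, was at 3.42 and 1.03 FPKM in batch 1 and 258 and 125 in batch 2.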
